A study of Mus musculus with 6 samples.

Results

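The enzymes of glycolysis and glycogen metabolism, together with the glucose transporters that feed them and the kinases that close the way from pyruvate into the mitochondrion, were compared between inner bone surface and flushed marrow of the mouse femur. The list names 35 genes by symbol, and 33 of them could be matched to a probe set, among 18194 genes in all. Eno1 and Gpi1, which encode the widely expressed enolase and glucose phosphate isomerase, were not matched through the annotation used and were not analysed here, so Eno3 could not be set against Eno1. The study set out to profile the endosteum, the inner lining of bone, as a site where blood stem cells reside, and it used RNA from the femurs of 3 mice on Affymetrix arrays. All groups were male C57BL/6 mice aged 8 weeks that had received saline into the peritoneal cavity, and no genotype or treatment differed between them. For the central group (3 arrays, A, B and C), the shaft of a scraped and rubbed femur without its metaphyses was flushed with buffered saline, and the cells that came out were spun down and lysed in Trizol, a phenol reagent for RNA. For the endosteal group (3 arrays, A, B and C), Trizol was passed through the emptied shaft, so this RNA came from whatever cells stayed on the inner surface. Both are mixtures of cell types, and in such bulk samples fewer cells of a type and less RNA per cell cannot be told apart. The labels do not say which arrays shared a mouse.

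Glycolysis splits glucose into pyruvate through a chain of enzymes in the cytosol, and most steps can be run by several isozymes, encoded by separate genes and made in different tissues. Skeletal muscle has its own forms of phosphofructokinase (Pfkm), phosphoglycerate mutase (Pgam2), enolase (Eno3) and glycogen phosphorylase (Pygm), which serve rapid breakdown of stored glycogen during contraction. Blood cells rely on other forms, and granulocytes store glycogen that they break down with the liver form of phosphorylase (Pygl).

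Values below are the deposited signals of 1 probe set per gene, in linear units, and they carry information on a gene's change between arrays but not on its level against another gene. A change is the endosteal minus the central mean of log2(signal + 16), a scale on which genes with low signals appear to change less than they did. They were tested with limma over all 18194 genes, with Benjamini-Hochberg adjustment, and a gene is called higher or lower at an adjusted p under 0.05. On this scale 1441 genes (7.92%) were called higher in the endosteal arrays and 731 (4.02%) lower, with a median change of 0.10. With each array centred on its median the calls were 952 higher and 1786 lower (34.8% of calls higher, against 66.3%). With the arrays scaled to the spiked poly-A controls they were 10532 and 46 (99.6% higher), and the median change of all genes became 0.97. Of the markers of bone matrix, 6 of 7 measured were called higher, with a summed signal of 1573 to 2077 centrally and 63494 to 78477 endosteally. All 18 skeletal muscle markers, from contractile proteins to calcium-handling proteins, were also called higher, with a median change of 5.82. Their summed signal was 1410.2 to 1934 on the central and 86449.9 to 174088 on the endosteal arrays, although the labels' protocol includes a step that cleans muscle off the bone. Only 1 of these markers had a mean central signal below 16, and none had one on the endosteal arrays.

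Of the 33 measured members, 7 were called higher in the endosteal arrays (21.2%, against 7.92% of all genes) and 4 lower (12.1%, against 4.02%). The 7 were Pgam2, Pygm, Pdk4, Eno3, Pfkm, Phka1 and Ldha, in order of their change from 4.85 down to 0.54. The 4 were Adpgk, Slc2a3, Pygl and Hk1, with changes from -1.73 to -0.66. Under poly-A scaling Slc2a3, Pygl and Hk1 turned to positive changes that lay below the median of all genes under that scaling. The other 22 passed in neither direction, and the median change over all 33 was -0.015. The arrays of the 2 regions did not overlap for 12 members that were higher endosteally (22.3% of all genes) and 9 that were lower (15.4% of all genes). When the array letter was entered as a replicate block, 143 genes were called higher and 6 lower among all genes, and of the members only Pgam2 and Eno3. The number of members called higher was 3 without central array A or B or endosteal array B and 4 without central array C or endosteal array A or C, and 1 member was called lower without any 1 of the 6. With 1 array left out, 549 to 928 of all genes were called higher and 101 to 307 lower.

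**Figure D1:**
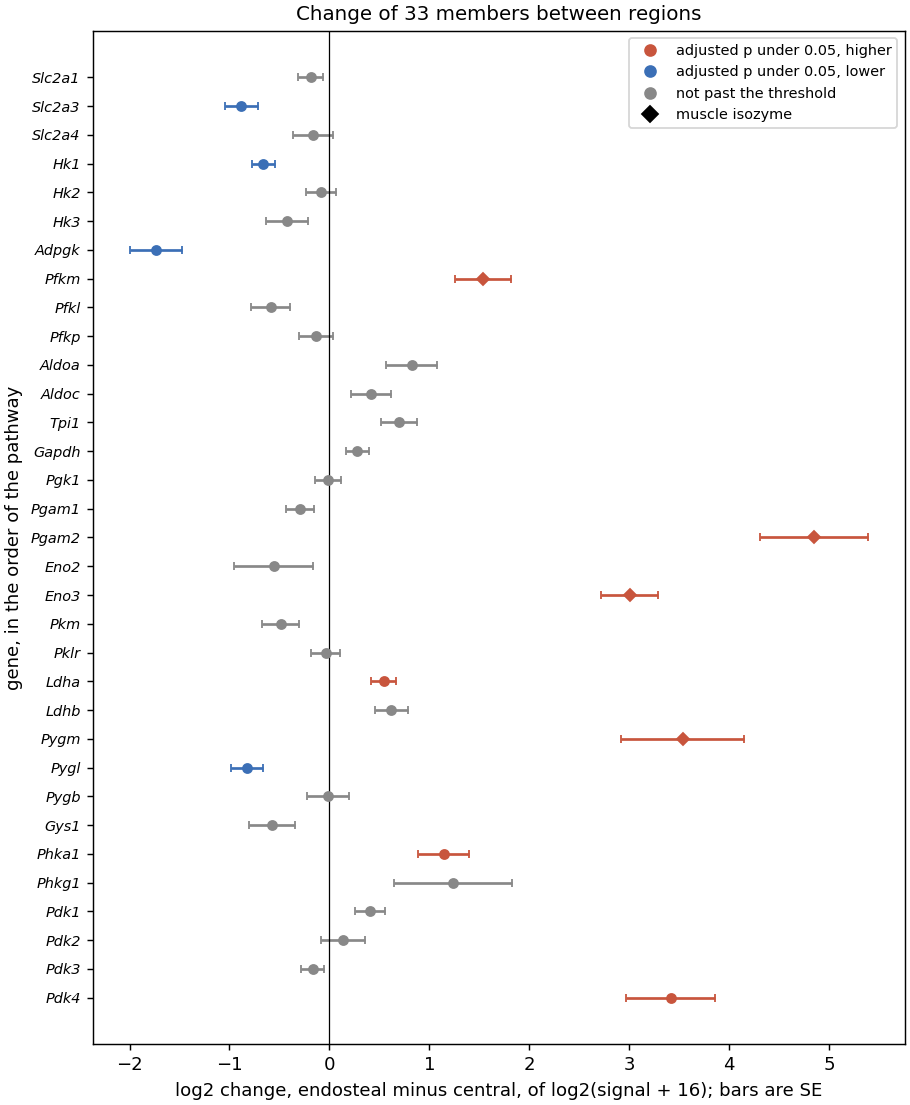
Change of each measured member, endosteal minus central mean of log2(signal + 16) with its standard error (3 arrays per region), with called genes marked. The 4 muscle isozymes lie between 1.54 and 4.85, while the other 29 members lie between -1.73 and 3.42; under poly-A scaling the lower changes of Slc2a3, Pygl and Hk1 change sign.

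The 4 muscle isozymes were all called higher, with a median change of 3.27. Pgam2, the muscle phosphoglycerate mutase, read 80.5, 19.3 and 25.1 on the central and 2737, 1025 and 1154 on the endosteal arrays, given here and below in the order A, B, C. Every endosteal array lay far above every central one. The change was 4.85 (SE 0.54), or 28.8-fold, with a limma adjusted p of 0.00862. Eno3, the muscle enolase, read 394, 333 and 376 centrally and 4678, 2491 and 2442 endosteally, again without overlap. Its change was 3.00 (SE 0.28), or 8.02-fold (adjusted p = 0.00586). With the letter as a replicate block the adjusted p was 0.0213 for Pgam2 and 0.0499 for Eno3, and both were called under every setting run.

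Pygm, the muscle glycogen phosphorylase whose loss causes McArdle disease, had central signals of 7.65, 32.6 and 99.9 and endosteal signals of 732, 683 and 382. The central arrays were all low but uneven, and the endosteal arrays were all higher. Its change was 3.54 (SE 0.61), an 11.6-fold difference on the log scale, with an adjusted p of 0.0244. Pfkm, the muscle phosphofructokinase, had central signals of 483, 654 and 709 and endosteal signals of 2583, 1451 and 1545. The regions did not overlap, and endosteal array A was the highest of the 6. Its change was 1.54 (SE 0.28), or 2.91-fold (adjusted p = 0.0272). Neither call held with the replicate block (adjusted p = 0.0960 for Pygm and 0.104 for Pfkm), nor did that of Pygm with a pseudocount of 1 (0.0545). Without central array A, B or C the adjusted p of Pfkm was 0.0844, 0.0846 and 0.0667, and it was 0.0548 and 0.0559 without endosteal array B or C. For Pygm it was 0.0535 and 0.0846 without central array A or B and 0.0705 and 0.0735 without endosteal array A or B.

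**Figure D2:**
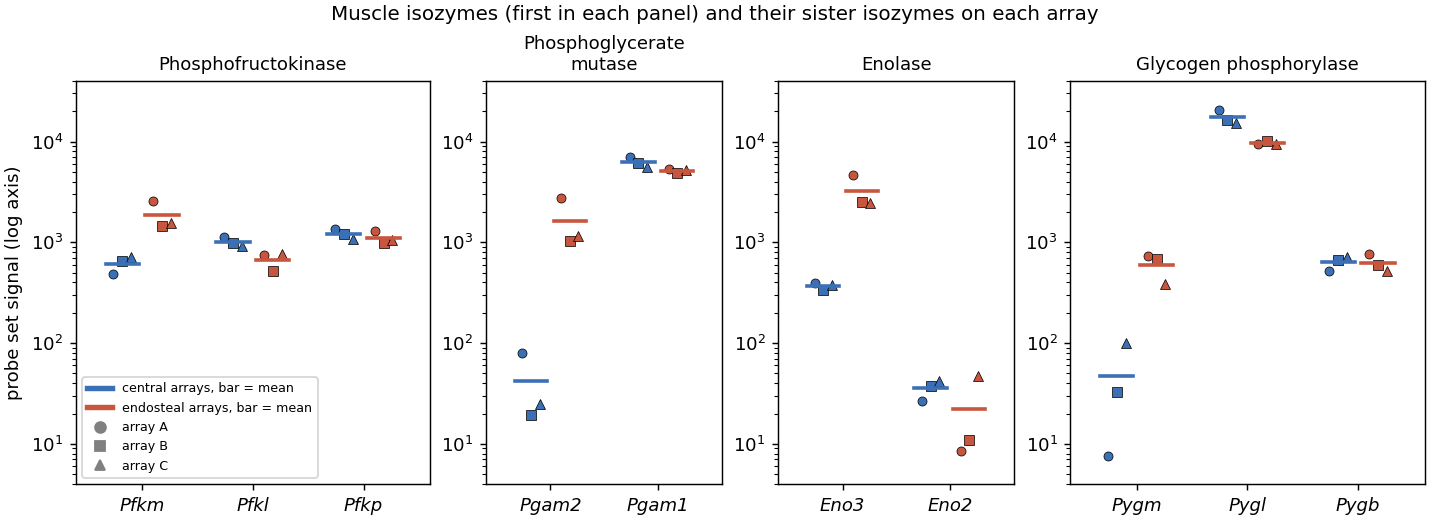
Signal of the muscle isozymes and of the other isozymes of the same step on each array, on a log axis, with central arrays beside endosteal arrays. Pgam2 rises from 19.3 to 80.5 centrally to 1025 to 2737 endosteally, while Pgam1 stays between 4823 and 7078 on all 6 arrays.

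None of the other measured isozymes of these steps was called higher. Pgam1, the mutase of most other tissues, had signals of 7078, 6183 and 5623 centrally and 5364, 4823 and 5186 endosteally. The endosteal signals lay just below the central ones, and the difference of -0.29 (SE 0.14) was not called (adjusted p = 0.238). Pfkl, the liver phosphofructokinase, read 1117, 989.9 and 921 centrally and 744, 518 and 760.3 endosteally, lower on every endosteal array but not called (-0.59, adjusted p = 0.111). It was called lower over genes above the median level and with an intensity trend. Pfkp, the platelet form, had overlapping regions and a difference of -0.13 (SE 0.17). Eno2, the neuronal enolase, had low signals of 26.7, 37.8 and 42.1 centrally and 8.59, 10.9 and 47.2 endosteally, which overlapped.

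Taken as the difference between the changes of isozymes at 1 step, Pgam2 exceeded Pgam1 by 5.14 (SE 0.55) on the log2 scale. Eno3 exceeded Eno2 by 3.56 (SE 0.69), but Eno2 signals were too low for the size of this difference to be read, and it went from 3.09 to 4.08 between pseudocounts of 64 and 1. Pfkm exceeded Pfkl by 2.13 (SE 0.33) and Pfkp by 1.67 (SE 0.29). Among the phosphorylases, Pygm exceeded the liver form Pygl by 4.36 (SE 0.84) and the brain form Pygb by 3.55 (SE 0.57). In each of these 6 pairs, the ratio of muscle to other isozyme on every endosteal array was above that on every central array. A two-sided exact permutation test of each pair gave p = 0.1, which is the smallest that 3 arrays against 3 can give, and 0.1 after adjustment over the 6 pairs. The design could therefore not reach 0.05 for a single pair.

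The upstream sequences of Pgam2, Pgam1, Eno3 and Pygm are shown because Pgam2 and Pgam1 encode the same activity and parted most, while Eno3 and Pygm rose with Pgam2. Each is the 250 bases before the gene's start in RefSeq (GRCm38.p6), 5′ to 3′ on the gene's strand. Capitals mark matches, on either strand, to CANNTG (the E-box bound by myogenic factors of the MyoD family, among others) and to the AT-rich MEF2 motif. Pgam2 lies at chr11:5803797-5804046 on the minus strand, Pgam1 at chr19:41911621-41911870 on the plus strand, Eno3 at chr11:70656926-70657175 on the plus strand and Pygm at chr19:6384158-6384407 on the plus strand.
Pgam2: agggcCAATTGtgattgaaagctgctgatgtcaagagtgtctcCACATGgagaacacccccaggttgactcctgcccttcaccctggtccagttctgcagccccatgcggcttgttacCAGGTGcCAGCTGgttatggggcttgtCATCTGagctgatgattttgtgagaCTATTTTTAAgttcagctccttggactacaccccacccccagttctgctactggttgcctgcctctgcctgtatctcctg
Pgam1: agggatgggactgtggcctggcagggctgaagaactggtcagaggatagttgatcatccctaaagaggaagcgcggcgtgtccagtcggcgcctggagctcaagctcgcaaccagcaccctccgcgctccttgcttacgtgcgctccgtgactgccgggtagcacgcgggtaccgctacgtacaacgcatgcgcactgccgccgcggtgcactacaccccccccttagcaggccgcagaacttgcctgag
Eno3: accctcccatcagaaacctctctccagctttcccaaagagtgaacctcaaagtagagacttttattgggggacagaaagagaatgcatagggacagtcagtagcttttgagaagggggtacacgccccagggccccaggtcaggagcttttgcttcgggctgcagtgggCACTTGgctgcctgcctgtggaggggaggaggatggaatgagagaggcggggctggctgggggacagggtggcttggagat
Pygm: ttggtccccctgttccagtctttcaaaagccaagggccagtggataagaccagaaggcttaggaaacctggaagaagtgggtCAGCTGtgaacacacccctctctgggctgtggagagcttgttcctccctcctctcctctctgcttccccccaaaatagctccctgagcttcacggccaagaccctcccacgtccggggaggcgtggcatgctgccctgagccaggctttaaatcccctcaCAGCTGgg
The Pgam2 window held 1 MEF2 match, which begins 80 bases before the start, and 5 CANNTG matches. The MEF2 motif was found in 2.92% of all 32851 windows of the table, and Pgam2 was the only listed member that held it. CANNTG was found once in the Eno3 window, 81 bases before the start, and in the Pygm window at 168 and 8 bases before it. It was absent from the Pgam1 window but is a short motif, present in 66.2% of all windows and in 28 of 47 member windows. ACGTG, the core of the element bound by hypoxia-inducible factors, which overlaps CANNTG where both read CACGTG, was found in 17 of the 47 member windows (36.2%) and in 16.6% of all windows. Windows of different starts of 1 gene can overlap, and a letter match says nothing of binding. Of the 35 listed genes 33 had a window, and Slc2a3 and Slc2a4 had none in the table.

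The endosteal arrays differed among themselves in the muscle isozymes. Against the central mean, Pgam2 stood 5.73, 4.32 and 4.49 higher (log2) on the endosteal arrays, Eno3 3.62, 2.71 and 2.68, and Pfkm 2.06, 1.23 and 1.32. Array A was the highest for each. The median of the 18 skeletal muscle markers stood 6.47, 5.58 and 5.45 higher on the same 3 arrays, and so also led on array A. On the linear scale endosteal array A was 1.94 times the mean of arrays B and C for the summed muscle markers, 2.51 times for Pgam2, 1.90 times for Eno3 and 1.72 times for Pfkm. The same ratio was 1.37 for Pygm, 1.53 for Phka1, 1.42 for Aldoa and 1.39 for Tpi1. Members outside the 4 muscle isozymes also led on array A, with 1.40 for Pdk2, 1.39 for Pygb, 1.28 for Pfkp, 1.25 for Hk3 and 1.24 for Pdk4. The bone matrix markers summed to 1.20 times and the neuron and Schwann markers to 1.03 times. Sums were 0.99 times for neutrophil, 0.92 for adipocyte, 0.90 for megakaryocyte and platelet, 0.68 for erythroid and 0.64 for B lymphocyte markers. For Pgam1, Pgk1 and Gapdh the ratio was 1.07, 1.06 and 0.996, and for Phkg1, at low signals, 3.82. The part of muscle RNA in these changes, and in those of Ldha and Ppp1r3c given below, was not tested.

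**Figure D3:**
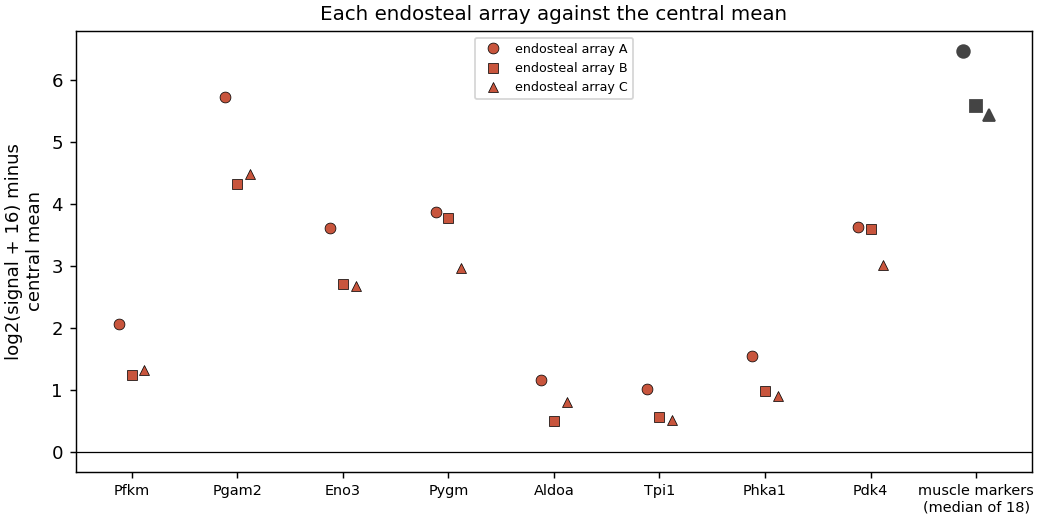
Each endosteal array minus the central mean of log2(signal + 16) for the 4 muscle isozymes, Aldoa, Tpi1, Phka1, Pdk4 and the median of the 18 skeletal muscle markers. Array A is the highest of the 3 for every gene shown, with 5.73 against 4.32 and 4.49 for Pgam2 and 6.47 against 5.58 and 5.45 for the marker median.

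At the entry of glucose, Slc2a3 fell on the deposited scale, while poly-A scaling gave 0.14. It encodes the high-affinity transporter GLUT3 and gave signals of 17514, 15620.1 and 14539 centrally and 8641, 9984 and 7369 endosteally, with no overlap. The change was -0.88 (SE 0.16), 1.84-fold lower on the log scale (adjusted p = 0.0293), with the probe set used. Of its 3 other probe sets 1 gave -0.92 and the others -0.21 and 0.33, and the name of the set used, like that of the set at -0.92, marks probes shared with or similar to other transcripts. With the mean of its probe sets Slc2a3 was not called (-0.42, adjusted p = 0.0958), nor with adjustment over all probe sets (0.0574). Slc2a1, the basal transporter GLUT1 of many cell types, lay -0.18 from the central mean (SE 0.13, adjusted p = 0.391) and was not called. Slc2a4, the insulin-responsive transporter GLUT4 of muscle and fat, had signals of 517, 579 and 529 centrally and 496, 604 and 370.1 endosteally, which overlapped (-0.16, adjusted p = 0.641). Endosteal array C was the lowest of the 6.

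Among the enzymes that phosphorylate glucose, Adpgk fell, and Hk1 fell on the deposited scale but gave 0.36 under poly-A scaling. Adpgk, a glucokinase that uses ADP in place of ATP, fell most among the members with the probe sets used, from 6006, 3488 and 3418 on the central arrays to 1396, 1189 and 1139 on the endosteal arrays. Central array A was the highest, and the regions did not overlap. Its change was -1.73 (SE 0.26), 3.33-fold lower (adjusted p = 0.0168), and it was called lower under poly-A scaling too (-0.72). A second Adpgk probe set gave 0.20 and was not called, and the mean of both probe sets was not called either (-0.77, adjusted p = 0.0907). Hk1, the hexokinase of most cells and the main one of red cells, read 4132, 4611 and 4383 centrally and a tight 2786, 2776 and 2719 endosteally. It fell by 0.66 (SE 0.12, adjusted p = 0.0248), or 1.58-fold, with the probe set used. A second Hk1 probe set gave -0.36 and was not called (adjusted p = 0.313 over all probe sets). With the mean of its probe sets Hk1 was not called (-0.51, adjusted p = 0.0765), nor with adjustment over all probe sets (0.0603). Neither Hk2, the form of muscle and fat (-0.081, adjusted p = 0.766), nor Hk3, a form of leukocytes (-0.42, adjusted p = 0.245), was called.

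With 1 of the 6 arrays left out in turn, Hk1 was called in no case (adjusted p = 0.0615 to 0.0923). Slc2a3 kept its call only without endosteal array B, with adjusted p of 0.0657 to 0.0944 otherwise. Adpgk lost its call only without endosteal array B (0.0573). With the replicate block the adjusted p was 0.0930 for Hk1, 0.0813 for Slc2a3 and 0.0566 for Adpgk. Of 7 measured B lymphocyte markers 3 were called lower and none higher, with a summed signal of 15470.5 to 22915 centrally and 5705 to 10221 endosteally. Of 5 megakaryocyte and platelet markers 3 were called higher, with sums of 21198 to 42109 and 79187 to 93752. The part of either in the changes of the transporters and hexokinases was not tested.

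In the later steps of glycolysis, between fructose bisphosphate and lactate, Eno3, Pgam2 and Ldha rose and no member was called lower. Ldha, the lactate dehydrogenase subunit that dominates in muscle and in many proliferating cells, had signals of 8236, 9141 and 8321 centrally and 13570.1, 11637 and 12313 endosteally. The arrays did not overlap, and the change was small at 0.54 (SE 0.13), or 1.46-fold, with an adjusted p of 0.0496. It was not called when any 1 array was left out (adjusted p = 0.0896 to 0.145) or with the replicate block (0.133). It also missed the threshold with a pseudocount of 1 (0.0588), quantile normalisation (0.0603), the mean of probe sets (0.0638) and adjustment over all probe sets (0.104), and with arrays centred on the median it was 0.28 (adjusted p = 0.236). Ldhb, the heart subunit, read 456, 524 and 572 centrally and 845, 894 and 678 endosteally, without overlap, and was not called (0.62, adjusted p = 0.0687). Ldhb was called higher with a pseudocount of 64 (0.0440) and when its probe sets were averaged (0.79, adjusted p = 0.0441). Over genes above the median level and with an intensity trend, Ldhb, Aldoa and Tpi1 were all called higher. Under both of these settings Pfkl and Pkm were called lower.

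Aldoa, the aldolase of muscle and red cells, had signals of 9277, 6814 and 5848 centrally and 16091, 10149 and 12565 endosteally. Every endosteal array was above every central array, but the difference of 0.82 (SE 0.25) was not called (adjusted p = 0.0942). Of its 5 probe sets 4 gave changes of 0.75 to 0.86 and the fifth 0.04. Tpi1, triose phosphate isomerase, likewise lay higher on every endosteal array, at 7158, 5265 and 5046 against 3348, 3472 and 3831 (0.70, adjusted p = 0.0610). Aldoc, the brain aldolase, overlapped between the regions (0.42, adjusted p = 0.241). Gapdh, often used as a reference gene, read 27758, 27257 and 25854 centrally and 32634, 32027 and 33521 endosteally, higher on each endosteal array with a difference of 0.28 (SE 0.11, adjusted p = 0.169) that became -0.033 with quantile normalisation. Pgk1, which makes the first ATP of the pathway, had nearly the same mean in both regions (-0.015, SE 0.13). Pkm, the pyruvate kinase of muscle and of leukocytes, read 13188, 9484 and 9372 centrally and 8296, 7238 and 7077 endosteally, lower on every endosteal array but not called (-0.49, adjusted p = 0.147). For Pklr, the pyruvate kinase of liver and red cells, the difference was -0.037 (SE 0.15). The probe sets used for Aldoa, Tpi1 and Ldhb, as for Hk3 and Phkg1, are of the kind whose name marks possible cross-hybridisation with other transcripts, so these values are less certain. The summed signal of 7 erythroid markers was 89419 to 106437 centrally and 60191 to 89064 endosteally, and none of them was called.

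Among the phosphorylases Pygm rose, as given above, and Pygl fell on the deposited scale but not under poly-A scaling. Pygl, the liver form that granulocytes also use, had signals of 20601, 16414 and 15139 centrally and 9551, 10188 and 9434 endosteally. All 3 endosteal arrays were close together and below all central arrays. It fell by 0.83 (SE 0.16), or 1.77-fold (adjusted p = 0.0305), but this became 0.20 under poly-A scaling. The call was lost when any 1 array was left out (adjusted p = 0.0615 to 0.0913) and with the replicate block (0.0937). Adjustment over all probe sets also lost it (0.0609). Pygb, the brain form, read 523, 660.1 and 709 centrally and 773, 592 and 519 endosteally, with overlap and a difference of -0.013 (SE 0.21). Neutrophil markers did not fall with Pygl as a list: of 12 measured, 5 were called higher and 3 lower, and their summed signal was 374124 to 412255 centrally and 572352 to 580586 endosteally. Their part in the Pygl change was not tested.

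Phosphorylase kinase switches phosphorylase on. Phka1, its muscle regulatory subunit, had signals of 166, 253 and 253 centrally and 670.3, 450.4 and 426 endosteally, without overlap. It rose by 1.14 (SE 0.25), or 2.21-fold (adjusted p = 0.0429). Its 2 other probe sets gave 0.75 and 0.84 and were not called (adjusted p = 0.116 and 0.104 over all probe sets). The Phka1 call was not kept with the replicate block (0.136), and it was lost when any 1 array was left out (adjusted p = 0.0718 to 0.110). It was also lost with a pseudocount of 1, arrays centred on the median, the mean of probe sets and adjustment over all probe sets (0.0713). Phkg1, the muscle catalytic subunit, read only 3.00, 26.4 and 8.57 centrally and 117, 45.6 and 15.6 endosteally, where the regions overlapped, and the difference of 1.24 (SE 0.59) was not called. Its other probe set read 7.45, 8.76 and 3.57 centrally and 77.5, 60.3 and 18.02 endosteally, without overlap and with a difference of 1.47 that was not called either (adjusted p = 0.101 over all probe sets). Gys1, the glycogen synthase outside the liver, lay lower on every endosteal array (986, 675 and 652 against 567, 558 and 400.4) and was not called (-0.58, adjusted p = 0.170).

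The pyruvate dehydrogenase kinases switch off the entry of pyruvate into the citric acid cycle, and of the 4 only Pdk4 was called, and it rose. Pdk4, the form that fasting induces in muscle, gave signals of 52.6, 7.75 and 42.2 centrally and 551, 537 and 354 endosteally. The regions lay far apart, and the change was 3.42 (SE 0.44), or 10.7-fold (adjusted p = 0.0120). It stood 3.63, 3.60 and 3.02 above the central mean on the 3 endosteal arrays, with arrays A and B close together. Among the settings that included it, its call was lost only with the replicate block (0.0650). Pdk4 was not among the genes above the median level. Pdk1, a target of hypoxia signalling, was higher on every endosteal array (952, 1004 and 976 against 616, 814 and 786) and was not called (0.41, adjusted p = 0.143). Pdk2 overlapped between the regions (0.14, SE 0.22). Pdk3 was lower on every endosteal array by a small margin (-0.17, adjusted p = 0.412). Adipocyte markers, which mark another tissue rich in Pdk4, were called higher for 2 of 5 measured, with a summed signal of 1290.2 to 3328 centrally and 8489 to 10279.6 endosteally, and their part in the Pdk4 change was not tested.

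Of 60 further genes of the same pathways, 4 were called higher and 5 lower, which is 6.67% against 7.92% of all genes and 8.33% against 4.02%, with a median change of 0.18. With 1 array left out in turn the counts were 0 to 3 higher and 1 to 2 lower. Of the 19 glycogen genes among them 3 were called higher (15.8%) and 1 lower, and none with the replicate block. Ppp1r3c, which brings protein phosphatase to glycogen and so favours storage, had signals of 6.72, 2.50 and 47.5 centrally and 903, 593 and 272 endosteally, without overlap, and changed by 4.19 (SE 0.63, adjusted p = 0.0171). Stbd1, which tethers glycogen to membranes, changed by 1.48 (adjusted p = 0.0179), and Phkb, the shared regulatory subunit of phosphorylase kinase, by 0.79 (adjusted p = 0.0436). Gpd1, the cytosolic glycerol phosphate dehydrogenase that shuttles reducing power out of the cytosol, changed by 1.63 (adjusted p = 0.0312). With the mean of probe sets only Stbd1 of these 4 was called: Gpd1 then gave 0.73 (adjusted p = 0.0795), Ppp1r3c 2.79 (0.0517) and Phkb 0.79 (0.0513).

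The lower calls lay in different steps. Slc2a6, a transporter of the glucose transporter family, had signals of 599, 485 and 559 centrally and 191, 236 and 210.0 endosteally and changed by -1.30 (SE 0.15, adjusted p = 0.00906). Slc16a3, the lactate exporter MCT4, changed by -1.21 (adjusted p = 0.0486). It was not called with a pseudocount of 1 (0.0634) or quantile normalisation (0.0519). Nor was it with the mean of probe sets (0.0523), adjustment over all probe sets (0.0771) or any 1 array left out (0.0568 to 0.130). Pdp2, a phosphatase that reactivates pyruvate dehydrogenase and so opposes the Pdk kinases, changed by -1.05 (adjusted p = 0.0240). Pfkfb4, which sets the level of the activator of phosphofructokinase, changed by -0.96 (adjusted p = 0.0328). Ppp1r3d, another subunit that targets phosphatase to glycogen, changed by -0.79 (adjusted p = 0.0234). Under poly-A scaling Pfkfb4 turned to 0.057 and Ppp1r3d to 0.22. Neither was called with any 1 array left out (adjusted p = 0.0615 to 0.0889 for Pfkfb4 and 0.0520 to 0.0832 for Ppp1r3d). Adjustment over all probe sets also lost both calls (0.0601 and 0.0517). Among the fits with 1 array left out, Pdp2 was called only without endosteal array C. None of these 9 genes was called with the replicate block. Under poly-A scaling 43 of the 60 were called higher, against 10532 of all 18194 genes, and 0 lower, against 46.

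**Figure D4:**
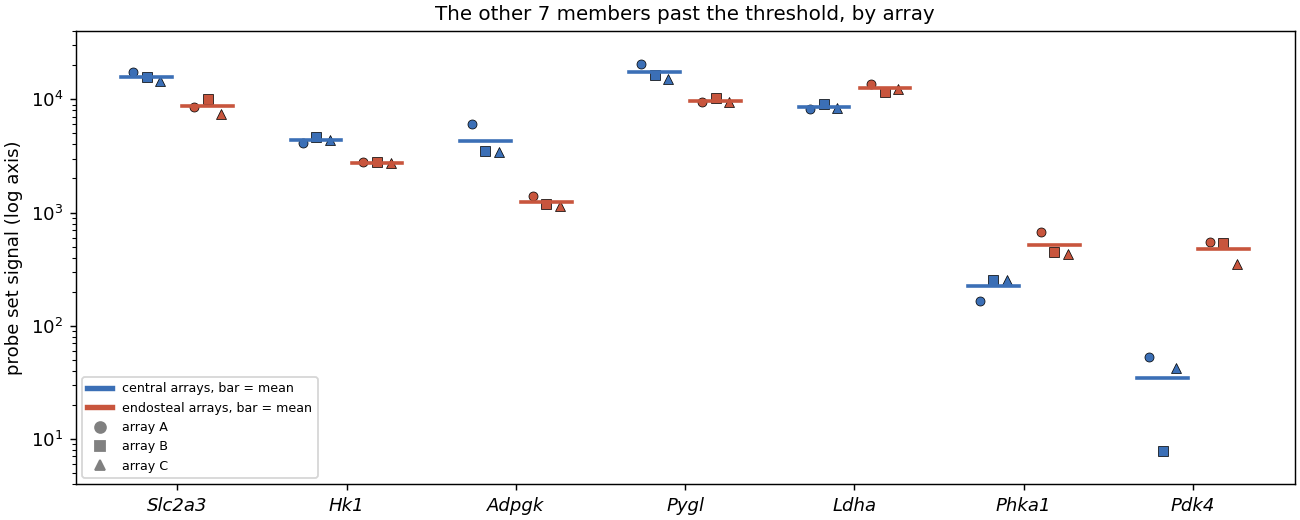
Signal on each array, on a log axis, of the called members other than the muscle isozymes, with central arrays beside endosteal arrays. The members are Slc2a3, Hk1, Adpgk, Pygl, Ldha, Phka1 and Pdk4. Pdk4 shows the widest separation, with a change of 3.42. Slc2a3, Hk1, Adpgk and Pygl changed by -1.73 to -0.66 on the deposited scale. Under poly-A scaling only Adpgk of them was called lower.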

How the data were processed

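The deposited values are probe set signals on a linear intensity scale, 1 array per sample, from 2 µg of total RNA labelled in 1 cycle, per the labels' protocols. The software by which the authors summarised the probes is not given in the sources used here; a mean of 500.0 after trimming 2% at each end on every array shows that they were scaled by array. Median signals were 97.2, 104 and 106 (central) and 127, 131 and 120 (endosteal). Only 3 arrays per region limit the precision, and no depth applies. Probe sets (45101) were named from the platform annotation. Of these, 34945 named 1 gene, 932 several and 9160 none, besides 64 controls. The GRCm38.p6 RefSeq table matched 34741 and changed 0 symbols. Of several probe sets of a gene, that with the highest mean signal was used. Gapdh was read from control probe sets, since its others also name pseudogenes.

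From the deposited intensities, log2(signal + 16) was computed and fitted with limma 3.58.1 (R 4.3.3, lmFit and eBayes, region as the only term, two-sided, Benjamini-Hochberg over 18194 genes), after a test on simulated data. That test, in which few genes were changed, recovered 30% of simulated log2 changes of 1, 40% of 2, 70% of 4 and 52% of -2. A gene that was not called may therefore still have changed. Exact permutation tests were also run in R, and trimmed means used scipy 1.17.1. Alternatives were other pseudocounts, normalisations, probe set rules, a filter, an intensity trend, a replicate block and leaving out each array; the probe set with the highest mean log2 value was added after seeing the data. Members and lists were chosen with earlier results of these data known. The text names every member and, of the other pathway genes, up to 5 called in each direction with the largest changes.

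Deviations of same-lettered arrays from their region means had a Pearson correlation across genes of 0.045 for A, 0.039 for B and 0.015 for C. Among the more highly expressed genes (above the median) it was 0.26, 0.13 and 0.10. Over all genes each central array correlated best with the endosteal array of its own letter. The reverse comparison was not made. The 6 samples came from 3 mice, but the labels do not tie a letter to a mouse.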

Additional observations from a re-analysis of the deposited data

How the results depend on the processing

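The members called higher (7) became 4 with a pseudocount of 1, 24 with poly-A scaling, 9 with a pseudocount of 64 and 10 with an intensity trend. Over genes above the median level 9 members were called higher, but this filter left out some members, Pygm and Pdk4 among them. Genes called higher among all 18194 went from 1441 to 1152 with a pseudocount of 1 and to 10532 with poly-A scaling. They numbered 1856 with a pseudocount of 64, 1596 of 9097 above the median level and 2213 with an intensity trend. The members called lower (4) became 1 with poly-A scaling, with the mean of a gene's probe sets and with adjustment over all probe sets. They became 6 over genes above the median level and with an intensity trend, with Pfkl and Pkm added. Genes called lower among all 18194 went from 731 to 46 with poly-A scaling and to 1693 with an intensity trend. Above the median level 1726 of 9097 genes were called lower. With the mean of probe sets 1111 of all genes were called higher and 497 lower. Of all 45101 probe sets 602 were called lower. The further pathway genes called higher (4) became 7 with a pseudocount of 64, 43 with poly-A scaling, 1 with the mean of probe sets, 7 over genes above the median level and 10 with an intensity trend, and those called lower (5) became 0 with poly-A scaling. The isozyme difference became 4.21 for Pgam2 over Pgam1 and 2.64 for Pygm over Pygb with a pseudocount of 64.

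With the array letter as a replicate block, 2 members were called higher (Pgam2 and Eno3, also the 2 muscle isozymes called) and 0 lower, and 0 further genes in either direction. At an unadjusted p under 0.05 the blocked limma fit gave 3048 genes higher and 1895 lower, against 3254 and 2061. With 1 array left out in turn, 3 to 4 members were called higher and 1 lower each time, 2 to 3 muscle isozymes higher, and 0 to 3 further genes higher and 1 to 2 lower. Among all 18194 genes these fits called 549 to 928 higher and 101 to 307 lower. The causes were not tested.

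Under poly-A scaling the sign of 17 members turned: Slc2a1 (0.82), Slc2a3 (0.14), Slc2a4 (0.83), Hk1 (0.36), Hk2 (0.93), Hk3 (0.60), Pfkl (0.42), Pfkp (0.88), Pgk1 (1.01), Pgam1 (0.73), Eno2 (0.031), Pkm (0.54), Pklr (0.92), Pygl (0.20), Pygb (0.98), Gys1 (0.42) and Pdk3 (0.84). With quantile normalisation Gapdh became -0.033, Pygb 0.016 and Pdk2 -0.10. With arrays centred on the median Pdk2 became -0.12, and with the mean of probe sets Pgk1 became 0.051. Leaving out 1 array gave ranges across 0 of -0.32 to 0.017 for Slc2a4, -0.086 to 0.065 for Pgk1, -0.12 to 0.036 for Pklr, -0.17 to 0.11 for Pygb and -0.014 to 0.34 for Pdk2. No called member turned except Slc2a3, Hk1 and Pygl under poly-A scaling. Choosing the probe set by mean log2 value changed no call among the members.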

Other observations

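The 5 subunit genes of the pyruvate dehydrogenase complex, which the Pdk kinases switch off, were looked at after their values had been seen. None was called, their differences lay between 0.37 and 0.51, and 4 of the 5 were higher on every endosteal array than on any central array (22.3% of all genes). Probe sets of 1 gene differed for some members. The 3 sets of Pfkp gave -0.13, 0.24 and -0.996, those of Pfkl by -0.59, -0.23 and -0.017, and those of Pklr by -0.037, -0.49 and -0.57. The sets of Ldhb (0.62, 0.84, 1.09 and 0.62), Pdk1 (0.41, 0.25, 0.61 and 0.70) and Tpi1 (0.71, 0.59 and 0.70) all pointed the same way.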
